A study of Mus musculus with 8 samples.

Results

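Saa3 and 5 other genes named for the acute phase response, Lcn2, Hp, Cp, Ptx3 and Steap4, were followed in EMT6 mammary tumours of mice given GrB-Fc-KS49 or IgG. They were taken by gene name, 6 of 26709 genes in the table, and all 6 were among the 19718 genes that passed the filter on low counts. The set was chosen by the levels of Saa3, which was among the genes most consistently higher in the 4 GrB-Fc-KS49 tumours than in the 4 IgG tumours of this same table, so the levels of the 6 genes are given as a description, with no test. EMT6 is a mouse mammary carcinoma line that grows in Balb/c mice. GrB-Fc-KS49 is a human fusion protein directed to EMP2, a protein of the cell membrane, and it includes granzyme B, a serine protease of cytotoxic lymphocytes. Poly(A) RNA was sequenced from 4 tumours labelled with granzyme B treatment (GrB-Fc-KS49 in the series title) and 4 labelled with IgG treatment, all of WT genotype, after 3 treatments within 10 days. The sources used here give neither age nor dose. Title suffix U marks 1 library per group, GrB-Fc-KS49 replicate 3 and IgG replicate 1, and its meaning is not given. Whether every tumour was from its own animal is not stated, and p-values therefore refer to the spread of these tumours. In bulk RNA fewer cells of a type and less RNA per cell cannot be told apart.

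The acute phase response is the change in plasma proteins that follows injury or infection, driven largely by interleukins and tumour necrosis factor acting on the liver through STAT3, NF-kB and C/EBP factors. Several of its genes are also switched on outside the liver, in macrophages, fibroblasts, epithelium and fat tissue, and Saa3 is the serum amyloid A gene of mice best known for this. The 6 genes have unlike roles: Saa3 and Ptx3 encode secreted innate immune proteins, Lcn2, Hp and Cp secreted carriers or enzymes of iron, haemoglobin and copper, and Steap4 a membrane metalloreductase.

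The libraries held 74.62 to 80.92 M estimated counts in GrB-Fc-KS49 tumours and 73.98 to 82.62 M in IgG tumours, and the 6 genes drew between 182 and 60248 counts per library. Over all genes, 0.0% passed an adjusted p under 0.05 by edgeR's quasi-likelihood test with Benjamini-Hochberg adjustment, 35.1% had an unadjusted p under 0.05, and 25.7% had groups that did not overlap. DESeq2 called 4708 genes on the same counts. Over all genes tested, the median log2 fold change was 0.03. Libraries stood apart in other tissues' markers: the sum of 10 adipocyte markers was highest in GrB-Fc-KS49 replicate 3, skeletal muscle markers in replicate 1 and skin keratinocyte markers in replicate 2. The groups also differed in how levels ran with transcript length. Over 14508 protein-coding genes, Spearman's rho between a library's deviation from the mean profile and transcript length was -0.432 to -0.0666 in GrB-Fc-KS49 tumours and 0.343 to 0.411 in IgG tumours. Krt8, the keratin of simple epithelium, was at 391 to 631 CPM (counts scaled to 1e6 per library) in GrB-Fc-KS49 tumours and 414 to 468 CPM in the IgG group, and Epcam, an epithelial adhesion molecule, at 2.73 to 16.0 CPM in GrB-Fc-KS49 tumours, against 3.19 to 4.46 CPM in IgG tumours.

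Saa3 was the only 1 of the 6 genes whose groups did not overlap, and Hp, Lcn2 and Steap4 had their highest level in a single GrB-Fc-KS49 tumour. Cp was lower on average in GrB-Fc-KS49 tumours, and Ptx3 differed by less than its spread. The share of all genes that did not overlap in the direction of Saa3 was 10.3%, and nothing is read from the count since this contrast chose the gene. Levels per kilobase of the first numbered transcript ordered the genes as Cp, Hp, Saa3, Lcn2, Ptx3 and Steap4 by their means in GrB-Fc-KS49 tumours, and as Cp, Saa3, Hp, Ptx3, Lcn2 and Steap4 in IgG tumours. Cp was at 132 ± 18.1 CPM per kilobase in GrB-Fc-KS49 tumours and 172 ± 28.1 in IgG tumours (SD, n = 4 each), above every library of the other genes except the 1 high Hp library. Steap4 was at 3.72 ± 2.32 CPM per kilobase in GrB-Fc-KS49 tumours and 3.05 ± 0.503 in IgG tumours. In GrB-Fc-KS49 tumours every pair of neighbours in this order overlapped in range except Saa3 and Lcn2. In IgG tumours the ranges of neighbours overlapped for Saa3 and Hp, Hp and Ptx3, and Lcn2 and Steap4. Saa3 depends on the transcript taken. With its longest coding transcript of 2200 bases in place of 555 bases it stood at 12.2 CPM per kilobase in GrB-Fc-KS49 tumours and 5.67 in IgG tumours.

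**Figure D1:**
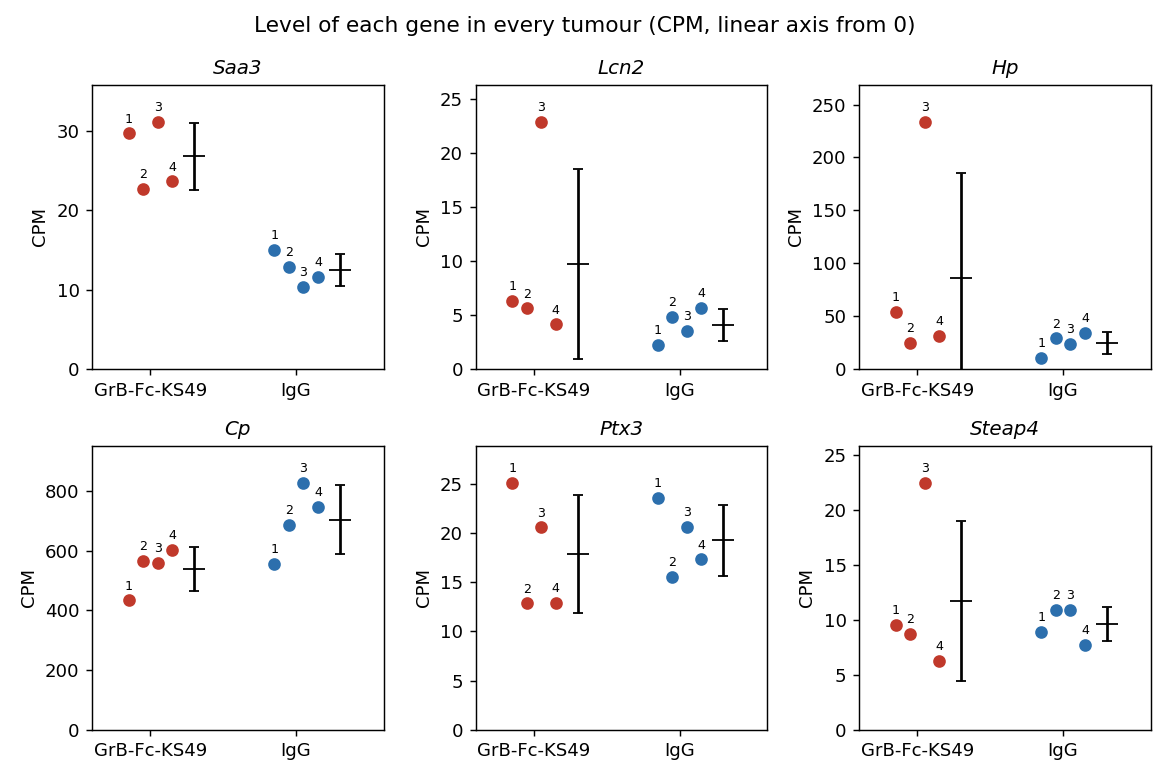
Each point is 1 tumour, with the level of 1 gene in CPM on a linear axis from 0 and bars for the mean ± SD of 4 tumours (the lower bar of Hp in GrB-Fc-KS49 tumours is cut at 0). Saa3 lies between 22.8 and 31.2 CPM in the GrB-Fc-KS49 group and between 10.39 and 15.04 CPM in the IgG group, while 1 GrB-Fc-KS49 tumour stands alone at 22.9 CPM for Lcn2, 234 CPM for Hp and 22.5 CPM for Steap4.

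Saa3 (ENSMUSG00000040026) lies on chromosome 7, 46361422 to 46365124 on the minus strand of GRCm39, and encodes a secreted apolipoprotein of high-density lipoprotein. The level of Saa3 was 29.7, 22.8, 31.2 and 23.7 CPM across GrB-Fc-KS49 replicates 1 to 4, against 15.04, 12.87, 10.39 and 11.63 CPM in IgG replicates 1 to 4. All 4 GrB-Fc-KS49 tumours were above every IgG tumour, and the tumours of a group kept within a narrow range, the highest being 1.37 times the lowest in the GrB-Fc-KS49 group and 1.45 times in the IgG group. Saa3 averaged 26.8 ± 4.23 CPM in the GrB-Fc-KS49 group and 12.5 ± 1.98 CPM in the IgG group (SD, n = 4 each), a ratio of 2.15 and a log2 fold change of 1.10 ± 0.15 (SE). Leaving out 1 tumour at a time gave Saa3 log2 fold changes of 1.02 to 1.22. Removing each library's trend with transcript length and GC content gave 1.03. That step took the longest coding transcript of Saa3, of 2200 bases, and was not run with the transcript of 555 bases. The deposited table held no other gene across the position of Saa3.

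The sequence before the start of Saa3 is shown because it is the gene whose groups were apart in every tumour and because C/EBP and NF-kB factors are known regulators of serum amyloid A genes. Motifs were searched on both strands in RefSeq windows of GRCm38.p6 from 250 bases before to 50 bases after each start. The letters were TTGCNNAA for C/EBP, GGGNN followed by TTTCC or by TTCCC for NF-kB, TTCNNNGAA for STAT and TGANTCA for AP-1. Among 32851 such windows, 10.8% held the C/EBP letters, 1.63% and 1.75% the first and the other NF-kB letters, 8.3% the STAT letters and 7.81% the AP-1 letters. The printed bases run from -250 to -31 relative to the start of Saa3 on the minus strand (chr7:46715707-46715926), and the capitals mark the C/EBP letters at -99 to -92, read on the opposite strand.
Saa3: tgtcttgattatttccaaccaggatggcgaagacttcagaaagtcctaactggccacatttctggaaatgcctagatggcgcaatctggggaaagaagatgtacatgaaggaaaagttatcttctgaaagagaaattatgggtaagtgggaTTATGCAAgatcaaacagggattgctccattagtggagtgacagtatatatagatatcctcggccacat
This C/EBP match was the only match in the Saa3 window to the 5 motif forms searched. A match is a description of letters and not of a bound site, and the absence of the other letters says nothing about the other factors.

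The neighbouring serum amyloid A genes were near the limit of detection. Saa1, an acute phase apolipoprotein made mainly in liver, was at 0.2504, 0.280, 0.631 and 0.112 CPM across GrB-Fc-KS49 replicates 1 to 4, against 0.0242, 0.132, 0.152 and 0.211 CPM in IgG replicates 1 to 4. The groups of Saa1 overlapped, with a log2 fold change of 1.29 ± 0.64 (SE) and an adjusted p of 0.178 by edgeR. The log2 fold change of Saa1 was 0.72 without GrB-Fc-KS49 replicate 3 and 0.37 without both libraries of the U suffix. Saa2, a close relative of Saa1, averaged 0.313 ± 0.196 CPM in the GrB-Fc-KS49 group and 0.154 ± 0.0889 CPM in the IgG group (SD, n = 4 each), and its groups overlapped. Saa1 and Saa2 are close in sequence, and how reads were shared between them is not given. Saa4, which is made constitutively, reached at most 0.143 CPM and did not pass the filter on low counts. The C/EBP letters lie at almost the same distance from the start in Saa1 and Saa2, with the capitals marking the match within 30 bases of GRCm38.p6 (chr7:46743144-46743173, minus strand, and chr7:46751639-46751668, plus strand).
Saa1: ctgtgctcccaTTGCACAAtgagggagaat
Saa2: ctgtgctcccaTTGCACAAtgagggaaaat
The match began at -182 in Saa1 and at -183 in Saa2, while that of Saa3 lies nearer to its start. Hepatocyte markers were low throughout: their sum was 2.04 to 3.70 CPM in the GrB-Fc-KS49 group and 1.499 to 2.31 CPM in the IgG group over 7 markers, and Alb, the albumin gene, was at 0.0868 CPM or less in every library. The markers Ttr, Apoa2 and Cps1 were not analysed here.

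Ptx3 (ENSMUSG00000027832, chromosome 3, 66127331 to 66133226, plus strand) encodes the long pentraxin 3, a secreted pattern recognition protein that binds complement C1q. The level of Ptx3 was 25.1, 12.9, 20.6 and 12.9 CPM across GrB-Fc-KS49 replicates 1 to 4, against 23.6, 15.5, 20.6 and 17.3 CPM in IgG replicates 1 to 4. The groups of Ptx3 overlapped, with 1 GrB-Fc-KS49 tumour above and 2 below all IgG tumours. Its mean was 17.9 ± 6.05 CPM in the GrB-Fc-KS49 group and 19.3 ± 3.59 CPM in the IgG group (SD, n = 4 each), and the log2 fold change was -0.11 ± 0.24 (SE). The sign of the Ptx3 change turned when IgG replicate 1, GrB-Fc-KS49 replicate 2 or GrB-Fc-KS49 replicate 4 was left out, to 0.02, 0.03 and 0.02. Ptx3 lies inside Veph1 on the opposite strand, which was at 0.869 CPM in the GrB-Fc-KS49 group and 1.54 CPM in the IgG group. Whether strand was used in counting is not given, so reads of the pair cannot be told apart. The window of Ptx3 held the C/EBP letters from -57 to -50, shown in capitals (chr3:66219819-66219848, plus strand), and the other NF-kB letters from 1 to 10.
Ptx3: gtggtttaacaTTGTGCAAcctcttcagct
The C/EBP letters of Ptx3 match on the opposite strand, as those of Saa3 do.

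Lcn2 (ENSMUSG00000026822, chromosome 2, 32274645 to 32278264, minus strand) encodes lipocalin 2, which binds bacterial siderophores and so withholds iron. The level of Lcn2 was 6.26, 5.59, 22.9 and 4.12 CPM across GrB-Fc-KS49 replicates 1 to 4, against 2.20, 4.81, 3.53 and 5.65 CPM in IgG replicates 1 to 4. Replicate 3 stood far above the other 7 tumours, 2 of the 4 GrB-Fc-KS49 tumours were above all IgG tumours, and the other 2 lay within the IgG range. Lcn2 averaged 9.71 ± 8.82 CPM in the GrB-Fc-KS49 group and 4.05 ± 1.51 CPM in the IgG group (SD, n = 4 each), with a log2 fold change of 1.26 ± 0.57 (SE). The Lcn2 mean of that group was 5.32 CPM and the log2 fold change 0.39 when GrB-Fc-KS49 replicate 3 was left out. Without both libraries of the U suffix the log2 fold change of Lcn2 was 0.19. The window of Lcn2 held the C/EBP letters at -216 to -209 (chr2:32387937-32387966, minus strand), shown in capitals.
Lcn2: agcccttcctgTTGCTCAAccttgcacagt
These letters were present in a window of each of the 5 genes that had one, Saa3, Lcn2, Cp, Ptx3 and Steap4. Cp has 2 windows, and only 1 of them held the letters. The share of 10.8% counts single windows, and the letters were searched as those of a known regulator. Whether they are more frequent in these genes was not tested.

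Hp (ENSMUSG00000031722, chromosome 8, 110301760 to 110305804, minus strand) encodes haptoglobin, the plasma protein that captures free haemoglobin. The level of Hp was 53.7, 24.8, 234 and 31.1 CPM across GrB-Fc-KS49 replicates 1 to 4, against 10.7, 28.8, 23.7 and 34.4 CPM in IgG replicates 1 to 4. GrB-Fc-KS49 replicate 3 was the highest and IgG replicate 1 the lowest of the 8 tumours, and the remaining tumours overlapped. Hp averaged 85.8 ± 99.3 CPM in the GrB-Fc-KS49 group and 24.4 ± 10.2 CPM in the IgG group (SD, n = 4 each), so that the SD exceeded the mean in GrB-Fc-KS49 tumours. The log2 fold change of Hp was 1.81 ± 0.74 (SE) over all tumours, 0.58 without GrB-Fc-KS49 replicate 3, and 0.33 without both libraries of the U suffix.

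Cp (ENSMUSG00000003617, chromosome 3, 20011218 to 20063309, plus strand) encodes ceruloplasmin, the copper ferroxidase that loads iron onto transferrin. The level of Cp was 433, 565, 559 and 604 CPM across GrB-Fc-KS49 replicates 1 to 4, against 555, 685, 828 and 747 CPM in IgG replicates 1 to 4. Only GrB-Fc-KS49 replicate 1 was below every IgG tumour, while the other 3 were above IgG replicate 1 and below the rest of that group. Cp averaged 540 ± 74.03 CPM in the GrB-Fc-KS49 group and 704 ± 115 CPM in the IgG group (SD, n = 4 each), a ratio of 0.767 and a log2 fold change of -0.38 ± 0.14 (SE). Leaving out 1 tumour at a time gave Cp log2 fold changes of -0.46 to -0.29. With the trends in transcript length and GC content removed it was -0.24. The end of Cp overlaps Hps3 on the opposite strand, which was at 20.02 CPM in the GrB-Fc-KS49 group and 21.1 CPM in the IgG group. Cp has 2 windows in the promoter table, the first with the AP-1 letters from -177 and the other with the C/EBP letters from -70.

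Steap4 (ENSMUSG00000012428, chromosome 5, 8010457 to 8032213, plus strand) encodes a metalloreductase that reduces iron and copper at membranes and is abundant in fat tissue. The level of Steap4 was 9.53, 8.71, 22.5 and 6.23 CPM across GrB-Fc-KS49 replicates 1 to 4, against 8.95, 10.9, 10.9 and 7.71 CPM in IgG replicates 1 to 4. Replicate 3 of the GrB-Fc-KS49 group again stood above all other tumours, and the rest overlapped. Steap4 averaged 11.7 ± 7.31 CPM in the GrB-Fc-KS49 group and 9.63 ± 1.59 CPM in the IgG group (SD, n = 4 each), with a log2 fold change of 0.29 ± 0.37 (SE). Its sign turned to -0.24 without GrB-Fc-KS49 replicate 3 and to -0.28 without both libraries of the U suffix. The Steap4 window is shown because it held 3 of the 5 motif forms, the most of the 5 genes with a window. The bases run from -250 to -31 (chr5:7960222-7960441, plus strand), and the capitals mark, in order, NF-kB letters at -226 to -217, STAT letters at -116 to -108 and C/EBP letters at -87 to -80.
Steap4: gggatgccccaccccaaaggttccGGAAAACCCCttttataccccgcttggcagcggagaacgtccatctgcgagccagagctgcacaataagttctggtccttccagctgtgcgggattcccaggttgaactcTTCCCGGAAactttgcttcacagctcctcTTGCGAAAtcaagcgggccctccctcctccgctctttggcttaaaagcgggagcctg

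**Figure D2:**
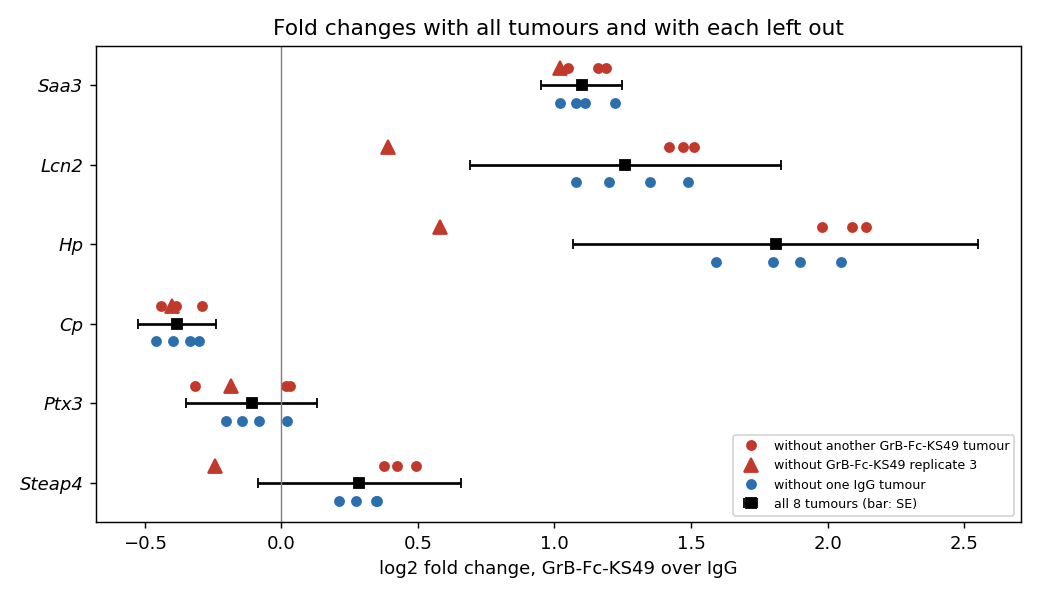
Log2 fold changes of the 6 genes, GrB-Fc-KS49 over IgG, with all 8 tumours (squares, bars for the SE) and with each tumour left out in turn (points). Saa3 stays between 1.02 and 1.22, while Hp ranges from 0.58 to 2.14, Lcn2 from 0.39 to 1.51, Steap4 from -0.24 to 0.49 and Ptx3 from -0.32 to 0.03.

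The tumour with the most Hp, Lcn2 and Steap4 was also the one with the most adipocyte RNA. Saa3 was also highest in that tumour, at 31.2 CPM, next to 29.7 CPM in GrB-Fc-KS49 replicate 1. The summed level of the 10 adipocyte markers was 160, 77.2, 508 and 83.5 CPM across GrB-Fc-KS49 replicates 1 to 4, against 52.1, 81.1, 74.7 and 99.1 CPM in IgG replicates 1 to 4. All 10 markers were highest in GrB-Fc-KS49 replicate 3 and all 10 were lowest in IgG replicate 1, the libraries in which Hp and Lcn2 were highest and lowest. Adipoq, the fat cell hormone adiponectin, was at 5.77, 1.89, 23.0 and 2.28 CPM across GrB-Fc-KS49 replicates 1 to 4, against 0.447, 2.98, 2.77 and 3.81 CPM in IgG replicates 1 to 4. Plin1, which coats the fat cell's lipid droplet, reached 10.9 CPM in replicate 3 of the GrB-Fc-KS49 group and 0.169 CPM in replicate 1 of the IgG group. Fabp4, a fatty acid carrier that macrophages and endothelium also express, made up 54.2% to 75.1% of the sum. Of the 10 markers, 3 had an unadjusted p under 0.05, all higher in GrB-Fc-KS49 tumours, where 17.3% of all genes had such a p in that direction.

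Set against this sum, Hp and Lcn2 varied far less than their levels did. The ratio of Hp to the adipocyte sum was 0.322 to 0.460 in GrB-Fc-KS49 tumours and 0.205 to 0.356 in IgG tumours, a 2.25-fold span over 8 tumours in which the Hp level spanned 21.9-fold. The ratio of Lcn2 to the sum was 0.0391 to 0.0725 in GrB-Fc-KS49 tumours and 0.0422 to 0.0593 in IgG tumours, a 1.85-fold span against 10.4-fold for the level. For Lcn2 this contrast rests on GrB-Fc-KS49 replicate 3 and IgG replicate 1, the libraries of the U suffix. In the other tumours the Lcn2 level was 3.53 to 6.26 CPM, and the ratio still ran from 0.0391 to 0.0725. Among those tumours the ratio of Hp was 0.317 to 0.372 and its level 23.7 to 53.7 CPM. For Saa3 the ratio to the sum was 0.0614 to 0.295 in GrB-Fc-KS49 tumours and 0.117 to 0.289 in IgG tumours. That is a 4.81-fold span against 3.0-fold for the level. The ratio spanned 3.87-fold for Steap4, 10.1-fold for Cp and 11.2-fold for Ptx3, each more than the level of that gene. The sum itself spanned 9.74-fold over the 8 tumours. The levels of Saa3, Cp and Ptx3 spanned so much less that a wider span of their ratios was fixed in advance. Nothing is read from those 3 spans about a relation to adipocyte RNA. These ratios are descriptions over 8 tumours of 2 groups that share each library's depth, and the part of adipocyte RNA in the levels of Hp, Lcn2 and Steap4 was not tested. Without GrB-Fc-KS49 replicate 3 the Saa3 mean of that group was 25.4 CPM and the log2 fold change 1.02.

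**Figure D3:**
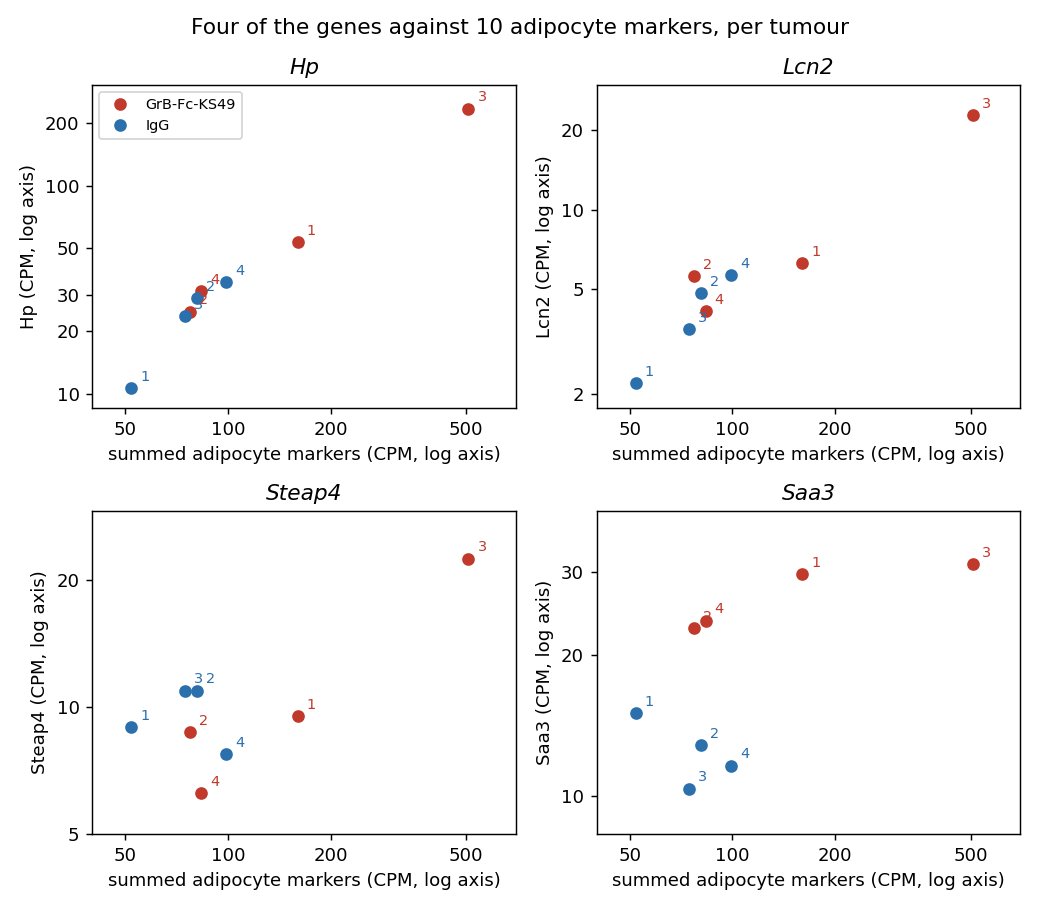
Each point is 1 tumour, with the sum of 10 adipocyte markers on the horizontal log axis and the level of 1 gene on the vertical log axis, both in CPM. Hp follows the sum across both groups up to the GrB-Fc-KS49 tumour at 508 CPM, at which Hp is at 234 CPM. Lcn2 is highest in that tumour, at 22.9 CPM, and lowest in the IgG tumour of the lowest sum, at 2.20 CPM. In the other tumours Lcn2 lies between 3.53 and 6.26 CPM.

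Markers of other cell types moved in different ways, and those of fibroblasts and endothelium were also mostly highest in GrB-Fc-KS49 replicate 3. Neutrophils store lipocalin 2 and haptoglobin in their granules, and the summed neutrophil markers were 77.8, 146, 32.6 and 54.8 CPM across GrB-Fc-KS49 replicates 1 to 4, against 26.8 to 55.4 CPM in the IgG group. The sum was lowest in replicate 3 within the GrB-Fc-KS49 group and was made up mostly of S100a8 and S100a9. The granule genes were split. Ltf, lactoferrin, was at 0.326, 2.32, 7.96 and 1.54 CPM across GrB-Fc-KS49 replicates 1 to 4, against 0.580 to 2.88 CPM in the IgG group. Ngp was also highest in replicate 3, at 0.190 CPM. Mmp8, Mpo and Camp were not highest there. Mmp8 was at 2.74, 2.25, 0.654 and 0.634 CPM across GrB-Fc-KS49 replicates 1 to 4. Mpo was highest in replicate 2, at 0.333 CPM, and Camp in replicate 1, at 0.0626 CPM. Ngp, Mpo and Camp did not pass the filter on low counts. Of 12 neutrophil markers 11 were in the table, all 11 with a higher mean in GrB-Fc-KS49 tumours. Of these, 7 were tested and 1 had an unadjusted p under 0.05, higher in GrB-Fc-KS49 tumours, where 17.3% of all genes did. Elane was not analysed here. Ly6g, a defining marker, was at 0.113 CPM or less. Macrophage markers, whose cells can express Saa3, summed to 4367, 3544, 2433 and 1800 CPM across GrB-Fc-KS49 replicates 1 to 4, against 1938 to 2266 CPM in the IgG group. Of the 10 macrophage markers 9 had a higher mean in GrB-Fc-KS49 tumours and 3, the C1q chains, had an unadjusted p under 0.05. GrB-Fc-KS49 replicate 4 had the lowest sum of all 8 tumours, with Lyz2 at 679 CPM, while its C1qa, C1qb and C1qc were above those of every IgG tumour. Fibroblast markers summed to 6326 to 16940 CPM in the GrB-Fc-KS49 group and 8828 to 14750 CPM in the IgG group, with 7 of 8 markers highest in GrB-Fc-KS49 replicate 3. Endothelial markers summed to 195.5 to 302.5 CPM in the GrB-Fc-KS49 group and 146.6 to 279.8 CPM in the IgG group. Of these, 5 of 7 were highest in that same tumour. The part of these cells in the levels of the 6 genes was not tested.

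Among all genes with a mean of at least 1 CPM, the 5 profiles most like that of Saa3 held none of the other 5 genes. Likeness was the root mean square distance between log2(CPM + 0.1) values centred on their mean over the 8 tumours, with 12929 genes compared. The nearest to Saa3 were Mdk, Pdgfrl, Bvht, Egfl7 and Il11ra1, at distances of 0.188 to 0.238. Mdk, the growth factor midkine, was at 3.02, 2.50, 2.80 and 1.87 CPM across GrB-Fc-KS49 replicates 1 to 4, against 1.20, 1.07, 0.662 and 1.02 CPM in IgG replicates 1 to 4. With profiles divided by their SD, the nearest were Slc35b2, Mdk, Tmem258, Ccdc163 and Micos10. The distance between Saa3 and Lcn2 was 0.723, which put Lcn2 in place 8802 from Saa3 but Saa3 in place 234 from Lcn2. The distance between Saa3 and Hp was 0.959, with Hp in place 12202 from Saa3 and Saa3 in place 139 from Hp. With profiles divided by their SD, Lcn2 and Hp were in places 2636 and 2531 from Saa3, and Saa3 in places 953 and 962 from them.

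Hp and Lcn2 were near each other and near adipocyte genes. The nearest to Lcn2 were Plin4, a lipid droplet protein, Cdo1 and Glb1l2, with Hp in place 8. The nearest to Hp were Retn, the fat cell hormone resistin, and Glb1l2, followed by Lcn2 in place 3 at a distance of 0.384. Plin4 was at 11.5, 9.21, 43.1 and 7.75 CPM across GrB-Fc-KS49 replicates 1 to 4, against 4.38, 10.2, 9.60 and 10.96 CPM in IgG replicates 1 to 4. Steap4 was in place 40 from Lcn2 and place 72 from Hp, while Lcn2 was in place 9495 and Hp in place 12229 from Steap4, whose own nearest were Notum, Abcd2 and Slc25a23. With profiles divided by their SD, Lcn2 was in place 134 and Hp in place 157 from Steap4. The nearest to Cp were Rasl12, Utp14b and Tent5b, and those to Ptx3 were Efhb, Lpar4 and Mapk12. Plin4 and Retn are also 2 of the 10 adipocyte markers summed above.

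Related genes were read in 6 lists, and in each list 0 genes passed an adjusted p under 0.05 by edgeR or by limma-voom. DESeq2 called 3 of the other acute phase genes, 1 cytokine, 6 receptors and kinases, 4 transcription factors and feedback regulators, 3 receptors and partners of the 6 proteins and 10 genes of iron, copper and haem handling. The counts below at an unadjusted p under 0.05 stand beside 17.3% of all genes higher and 17.8% lower. Groups without overlap stand beside 10.3% of all genes higher and 15.3% lower. With upper quartile scaling 61.4% of the genes with an unadjusted p under 0.05 were higher, against 49.2% with the scaling used.

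Of 29 other acute phase genes 24 were in the table and 16 were tested, and 14 of the 16 had a higher mean in GrB-Fc-KS49 tumours. The median log2 fold change was 0.74, with 3 genes at an unadjusted p under 0.05, all higher, and 0 genes without overlap. The median was 0.41 without GrB-Fc-KS49 replicate 1. Orm1, an acute phase lipocalin that carries drugs and lipids, averaged 2.54 ± 3.21 CPM in the GrB-Fc-KS49 group and 0.265 ± 0.127 CPM in the IgG group (SD, n = 4 each), with a log2 fold change of 3.25 and an adjusted p of 0.0746 by edgeR. The log2 fold change of Orm1 was 1.91 without GrB-Fc-KS49 replicate 2, the tumour highest in skin markers. Serpina3g, a protease inhibitor of lymphoid and myeloid cells, was at 145, 41.3, 3.49 and 16.7 CPM across GrB-Fc-KS49 replicates 1 to 4, against 1.96, 7.51, 9.55 and 6.32 CPM in IgG replicates 1 to 4. Replicate 3, the highest in Hp and Lcn2, was the lowest of its group in Serpina3g and below 3 of the 4 IgG tumours. The log2 fold change of Serpina3g was 3.03, or 1.70 without GrB-Fc-KS49 replicate 1. The adjusted p of Serpina3g was 0.0845, that of its neighbour Serpina3f 0.0971 and that of Cfb, complement factor B, 0.165. Serpina3 genes are related copies, and how reads were shared between them is not given.

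Within this list the high tumour differed from gene to gene. Of the 16 tested genes, 7 were highest in GrB-Fc-KS49 replicate 1, 3 in replicate 2, 5 in replicate 3 and 1 in IgG replicate 1. Serpina3n, a secreted antichymotrypsin homologue named here after its values were seen, was at 22.3, 12.3, 80.4 and 10.1 CPM across GrB-Fc-KS49 replicates 1 to 4, against 25.6, 19.2, 8.68 and 18.0 CPM in IgG replicates 1 to 4. Serpina3n thus shared its highest tumour with Saa3, Hp, Lcn2 and Steap4. Its groups overlapped, with an adjusted p of 0.408. The T cell markers summed to 72.7, 43.7, 13.7 and 27.0 CPM across GrB-Fc-KS49 replicates 1 to 4, against 11.1 to 17.3 CPM in the IgG group. The levels of Serpina3g had the same order over the GrB-Fc-KS49 tumours, and the part of T cells in them was not tested. Crp, Apcs, Fga, Pzp and Hamp were not analysed here.

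Of the 17 listed cytokines that induce acute phase genes 13 were tested, with a median log2 fold change of 0.32 and 1 gene at an unadjusted p under 0.05, higher in GrB-Fc-KS49 tumours. That gene was Ifng, the interferon of T and natural killer cells, at 4.96, 1.09, 0.0595 and 0.261 CPM across GrB-Fc-KS49 replicates 1 to 4, against 0.0121, 0.185, 0.221 and 0.062 CPM in IgG replicates 1 to 4. The groups of Ifng overlapped, and its adjusted p was 0.092 by edgeR. The log2 fold change of Ifng was 3.73, or 1.97 without GrB-Fc-KS49 replicate 1. Il1b, a main inducer of Saa3 in cultured cells, was at 42.0, 47.7, 6.90 and 34.2 CPM across GrB-Fc-KS49 replicates 1 to 4, against 18.9, 17.2, 13.7 and 11.2 CPM in IgG replicates 1 to 4. GrB-Fc-KS49 replicate 3 was the lowest of the 8 tumours in Il1b and the highest in Saa3. The adjusted p was 0.153 for Il1b, 0.192 for Tnf, 0.200 for Il36g and 0.224 for Il33. Il6, the classical hepatic inducer, averaged 1.20 ± 0.592 CPM in the GrB-Fc-KS49 group and 0.955 ± 0.456 CPM in the IgG group (SD, n = 4 each), within its spread.

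Receptors and kinases of these cytokines differed in both directions, more often lower in GrB-Fc-KS49 tumours among those with a small p. Of 22 genes tested, 6 were at an unadjusted p under 0.05 and lower in GrB-Fc-KS49 tumours and 2 were higher, and 5 lower and 1 higher had groups that did not overlap. The median log2 fold change was 0.01. Osmr, the oncostatin M receptor, was at 49.9, 55.7, 55.0 and 61.8 CPM across GrB-Fc-KS49 replicates 1 to 4, against 83.7, 78.9, 94.3 and 81.8 CPM in IgG replicates 1 to 4, with a log2 fold change of -0.61 ± 0.09 (SE) and an adjusted p of 0.0619 by edgeR. Il6st, the shared signalling chain gp130 of this receptor family, averaged 152 ± 8.85 CPM in the GrB-Fc-KS49 group and 188 ± 5.23 CPM in the IgG group (SD, n = 4 each), with a log2 fold change of -0.31. With the length and GC trends removed the log2 fold change was -0.44 for Osmr and -0.07 for Il6st. Jak1 and Jak2, the kinases bound to these receptors, had log2 fold changes of -0.39 and -0.55, or -0.26 and -0.39 with the trends removed. Traf6, an adaptor of interleukin and Toll-like receptors, was the fifth of the lower genes without overlap, at -0.36.

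Il11ra1, the receptor chain of interleukin 11, was the 1 gene of that list that was higher with no overlap. The level of Il11ra1 was 25.6, 17.6, 24.7 and 14.7 CPM across GrB-Fc-KS49 replicates 1 to 4, against 13.1, 13.3, 9.80 and 12.7 CPM in IgG replicates 1 to 4. Its log2 fold change was 0.76 ± 0.19 (SE), with an adjusted p of 0.0619 by edgeR. Il11ra1 was also among the nearest profiles to Saa3, and mice carry a near-identical copy with which its reads may be shared. The other higher gene was Ifngr2, a chain of the interferon gamma receptor, at 67.1 ± 8.52 CPM in the GrB-Fc-KS49 group and 56.6 ± 3.69 CPM in the IgG group (SD, n = 4 each), with an adjusted p of 0.122.

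The transcription factors and feedback regulators that act on acute phase promoters were split between directions. Of 22 genes tested, 3 were at an unadjusted p under 0.05 and higher in GrB-Fc-KS49 tumours and another 3 lower, and 1 higher and 3 lower had groups that did not overlap. The median log2 fold change was 0.05. Socs1, which restrains interferon signalling, was at 33.7, 18.1, 12.9 and 10.7 CPM across GrB-Fc-KS49 replicates 1 to 4, against 8.83, 9.56, 7.80 and 9.28 CPM in IgG replicates 1 to 4. The groups of Socs1 did not overlap, and its adjusted p was 0.0698 by edgeR. For Socs1 the log2 fold change was 1.09, or 0.65 without GrB-Fc-KS49 replicate 1. Cebpd, a C/EBP factor induced in the acute phase, averaged 11.8 ± 1.56 CPM in the GrB-Fc-KS49 group and 8.68 ± 1.45 CPM in the IgG group (SD, n = 4 each), with a log2 fold change of 0.44 ± 0.15 (SE) and an adjusted p of 0.0795. Nfkbia, the inhibitor of NF-kB, was the other higher gene, with an adjusted p of 0.136. The lower genes were Fosl2, an AP-1 subunit, and the NF-kB subunits Rel and Nfkb1, with log2 fold changes of -0.35, -0.32 and -0.20 and adjusted p-values of 0.0619, 0.0867 and 0.122. Stat3, the factor that the interleukin-6 family activates, was within its spread, at 174 ± 22.9 CPM in the GrB-Fc-KS49 group and 166 ± 6.92 CPM in the IgG group (SD, n = 4 each).

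Among receptors and binding partners of the 6 proteins, the complement C1q chains that pentraxin 3 binds were higher in all 4 GrB-Fc-KS49 tumours. Of 23 genes tested, 5 were at an unadjusted p under 0.05, all higher, and the median log2 fold change was 0.09. Groups did not overlap for 3 higher genes, the C1q chains, and for 1 lower gene, Scarb1, a lipoprotein receptor that also binds serum amyloid A, at 75.03 ± 4.67 CPM in the GrB-Fc-KS49 group and 82.96 ± 2.74 CPM in the IgG group (SD, n = 4 each). C1qa was at 762, 478, 289 and 281 CPM across GrB-Fc-KS49 replicates 1 to 4, against 154, 238, 195 and 206 CPM in IgG replicates 1 to 4, with a log2 fold change of 1.19 ± 0.32 (SE) and an adjusted p of 0.0628 by edgeR. C1qb and C1qc followed at 1.17 and 1.14, and these 3 genes are also on the macrophage marker list, whose sums are given above. Selp, the endothelial selectin, and Fpr2, a formyl peptide receptor that binds serum amyloid A, had adjusted p-values of 0.113 and 0.141. For Fpr2 the log2 fold change was 1.51, or 0.67 without GrB-Fc-KS49 replicate 1. Cd163, the haptoglobin-haemoglobin receptor of macrophages, named after its values were seen, was at 5.45, 3.09, 68.1 and 6.90 CPM across GrB-Fc-KS49 replicates 1 to 4, against 75.4, 24.8, 6.28 and 15.5 CPM in IgG replicates 1 to 4. The 2 highest Cd163 tumours were the 2 of the U suffix, 1 in each group, which were the highest and the lowest in Hp.

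Of 25 genes of iron, copper and haem handling, all tested, 8 were at an unadjusted p under 0.05 and lower in GrB-Fc-KS49 tumours, and 3 were higher. The groups did not overlap for 7 lower and 3 higher genes, and the median log2 fold change was -0.14. Flvcr1, a haem exporter, Steap2, a relative of Steap4, and Ireb2, an iron-sensing regulator, had log2 fold changes of -0.49, -0.48 and -0.40. Atox1, a copper chaperone, and Ftl1, the ferritin light chain, had 0.55 and 0.44. The adjusted p-values of these 5 genes were 0.0619 to 0.0649 by edgeR. Removing the length and GC trends gave -0.39 for Flvcr1, -0.23 for Steap2, -0.21 for Ireb2, 0.29 for Atox1 and 0.19 for Ftl1, each smaller in size than before. Ftl1 averaged 2192 ± 379 CPM in the GrB-Fc-KS49 group and 1612 ± 44.3 CPM in the IgG group (SD, n = 4 each). Trf, transferrin, the plasma iron carrier, was the third higher gene, at 35.5, 37.5, 65.5 and 35.2 CPM across GrB-Fc-KS49 replicates 1 to 4, against 29.0, 33.8, 18.9 and 28.9 CPM in IgG replicates 1 to 4. Its highest tumour was again GrB-Fc-KS49 replicate 3, and its log2 fold change was 0.65, or 0.38 without that tumour.

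**Figure D4:**
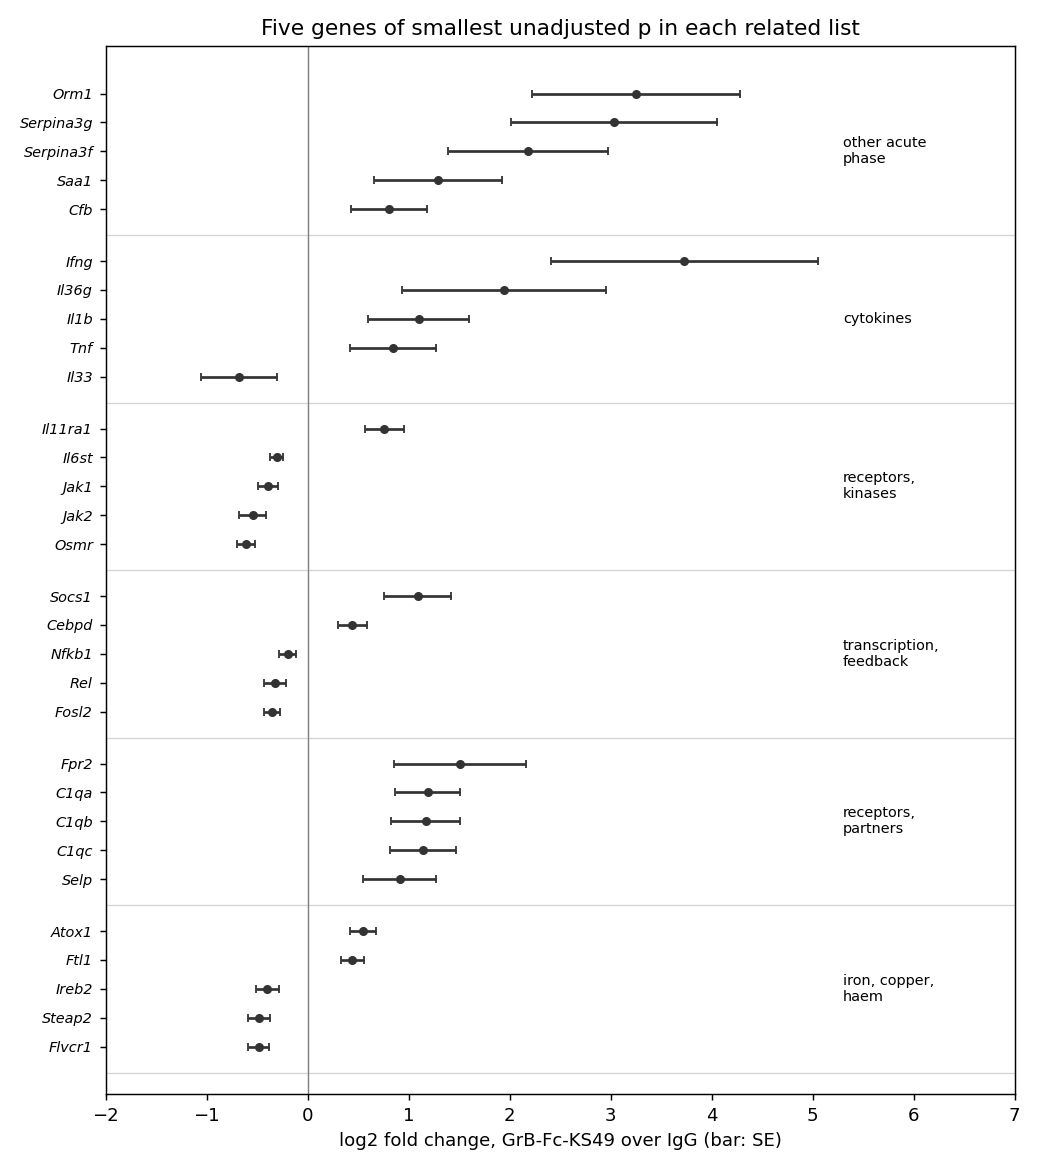
Log2 fold changes, GrB-Fc-KS49 over IgG, of the 5 genes of smallest unadjusted p in each of the 6 related lists, with bars for the SE. Acute phase genes and cytokines such as Orm1 (3.25) and Ifng (3.73) have wide bars, while Osmr (-0.61), Il6st (-0.31) and Fosl2 (-0.35) have narrow bars on the lower side.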

How the data were processed

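The KAPA Stranded mRNA-Seq kit, which marks the second strand with dUTP, was used on enriched poly(A) RNA, per the labels' protocols. Demultiplexing used bcl2fastq 2.19.1.403, and alignment used STAR and GRCm39, per the submitters' processing notes. No source used here names the quantifier or its use of strand. Estimated counts per gene were deposited by the authors, with 46.0% to 47.8% whole values per library, and a table of CPM made from the same counts after adding 0.0001. All sample columns were mapped to labels. Estimated counts were rounded, filtered with filterByExpr, scaled by TMM and fitted in edgeR 4.0.16 (robust quasi-likelihood, R 4.3.3) over all 8 libraries with no covariate, with Benjamini-Hochberg adjustment over 19718 genes. The biological coefficient of variation was 27.8%. Printed CPM are TMM-scaled. Gene positions are those of the table on GRCm39, 1-based.

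The members and lists were chosen with earlier results of these data known. From each list the 5 genes of smallest unadjusted p were named, with every gene behind counts of at most 5. Per gene, the nearest 5 (Saa3) or 3 profiles were named, leaving out predicted genes. Other genes were named as background to a result, after their values were seen. For the trends, transcript lengths and GC content were those of each gene's longest coding transcript, or its longest where none is coding. They came from a GENCODE annotation of GRCm38 and covered 98.1% of tested genes. Promoter windows came from RefSeq for 5 of the 6 genes. Alternatives were other filters and scalings, DESeq2 1.42.0, limma 3.58.1 (voom, voom with sample weights, and log2(CPM + 1) or log2(CPM + 0.25) on CPM as deposited), single libraries left out, the U suffix left out or as a covariate, length and GC trends removed with mgcv 1.9.3, and other thresholds. The scripts' tests were checked on simulated counts.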

Additional observations from a re-analysis of the deposited data

Results flagged for a closer look

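Levels in CPM were checked for a tumour far from the other 3 of its group, in 76 groups, and 5 stood out. Chance flags about 1 group in 20 where values are normally distributed. The count is near that rate, and nothing is read from it. GrB-Fc-KS49 replicate 3 was far above its group for Hp, at 233.6 CPM, and for Lcn2, at 22.86 CPM. The same tumour was highest in all 10 adipocyte markers, whose part in these levels was not tested. Il36g, an epithelial cytokine, stood high in GrB-Fc-KS49 replicate 2, at 9.827 CPM, where skin keratinocyte markers summed to 2346 CPM, against 83.1 to 119 CPM in the other 3 tumours of the group, and the log2 fold change of Il36g was 0.13 without that tumour. Il36g also stood high in IgG replicate 1, at 1.753 CPM. Il11ra1 stood low in IgG replicate 3, at 9.796 CPM.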

How the results depend on the processing

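Saa3, Lcn2, Hp and Cp kept their direction in all 20 alternatives run for each. For Saa3 this adds no support, since the gene was chosen for its direction in these same libraries. Without both libraries of the U suffix the log2 fold change was 0.33 for Hp and 0.19 for Lcn2. Leaving out each library in turn gave ranges of 1.02 to 1.22 for Saa3, 0.39 to 1.51 for Lcn2, 0.58 to 2.14 for Hp, -0.46 to -0.29 for Cp, -0.32 to 0.03 for Ptx3 and -0.24 to 0.49 for Steap4. Over all genes, where edgeR called 0, DESeq2 called 4708, voom with sample weights 1267, limma-voom 1, and leaving out libraries gave 0 to 3447, with 1260 without replicate 1 and 3447 without replicate 4 of GrB-Fc-KS49. At an adjusted p under 0.1 there were 4952, and at an unadjusted p under 0.05 there were 6915. Adjusted calls by DESeq2 were 3 for other acute phase genes, 1 for cytokines, 6 for receptors and kinases, 4 for transcription factors, 3 for receptors and partners and 10 for iron, copper and haem. With voom weights they were 4 for receptors and kinases, 1 for transcription factors and 5 for iron, copper and haem. Leaving out libraries gave adjusted calls of 0 to 2 for acute phase genes, 0 to 7 for receptors and kinases, 0 to 4 for transcription factors, 0 to 4 for receptors and partners and 0 to 6 for iron, copper and haem. Acute phase genes at an unadjusted p under 0.05 numbered 6 with no filter, 1 with at least 1 CPM in 4 libraries, 0 with either voom fit, 0 with log2(CPM + 1), 1 with log2(CPM + 0.25) and 1 to 8 with a library left out. Their median log2 fold change was 0.41 to 0.95 with a library left out, lowest without GrB-Fc-KS49 replicate 1, and 0.35 with voom weights. Cytokines at that threshold numbered 0 with the stricter filter, 0 with either voom fit, 0 with either log2 pseudocount, 2 with upper quartile scaling, 4 with DESeq2, 5 without the U suffix and 0 to 6 with a library left out. Receptors and partners at that threshold numbered 8 with DESeq2, 3 with log2(CPM + 1) and 3 to 11 with a library left out, and their median ran from 0.0048 to 0.27. Transcription factors numbered 3 to 8 with a library left out. Signs turned for Ptx3 (0.02 without IgG replicate 1, 0.03 without replicate 2 and 0.02 without replicate 4 of GrB-Fc-KS49), Steap4 (-0.24 without GrB-Fc-KS49 replicate 3, -0.28 without both of the U suffix), Serpina3n (-0.27 without GrB-Fc-KS49 replicate 3, -0.040 without both of the U suffix, otherwise up to 1.10), Cd163 (0.46 without IgG replicate 1, otherwise down to -2.57), Il6 (-0.020 without GrB-Fc-KS49 replicate 1, otherwise up to 0.73) and Stat3 (-0.0087 without that replicate, otherwise up to 0.14). The causes were not tested. Of 42 named related genes, 26 passed an adjusted p under 0.05 in at least 1 alternative. Lists without shared members were not run because 0 genes are in 2 of the 6 lists. No paired analysis was possible because replicate numbers only name libraries in accession order and pair nothing. Saa1, Saa2 and Saa4 are limited by depth, with few counts per library.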
